A study of Mus musculus with 23 samples.

Results

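The proteasome is the protease that degrades ubiquitin-tagged proteins. Its genes were followed through fat cell differentiation of C3H10T1/2, a mouse mesenchymal stem cell line of the C3H strain. Every gene of the deposited expression table whose symbol begins with Psma to Psmg and a number was taken, which gave 50 of 24029 genes. They comprise 19 core genes (Psma and Psmb), 21 regulatory genes (Psmc and Psmd), 5 activators (Psme), and 5 genes of an inhibitor and of assembly chaperones (Psmf and Psmg). One of them, Psmc3ip, matches the name pattern but encodes a meiotic recombination factor that is no part of the particle.

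RNA was measured as RPKM, reads per unit of gene length and of library size. At day 7 (mature adipocytes) there were 3 libraries made by TELP, the library construction method under study, labelled T18, N9_ss and N9, and 1 made by a standard procedure with selection of poly(A) RNA. At day 0 (pre-adipocytes) there were a TELP N9 library and a standard one. All cells had been grown for 3 days with 8.3 nM BMP7. Day 7 cells had then received 0.12 µg/ml insulin, 1 µM of a compound labelled Rosi and 1 nM T3, with 5 µM DEX and 0.5 mM IBMX until day 2, per the labels' protocols. Each group is 1 library, so no value has a replicate error, and fewer cells of a type cannot be told apart from less RNA per cell. The 17 chromatin libraries of the series were not analysed here.

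In the proteasome core, rings of alpha subunits gate the chamber and rings of beta subunits form it. Among the beta subunits, those encoded by Psmb5, Psmb6 and Psmb7 carry the protease sites, and interferon can replace them with Psmb8, Psmb9 and Psmb10 to make the immunoproteasome, which is known for producing peptides for antigen presentation. A regulatory particle caps the core: its ATPases (Psmc) unfold the substrate, and its non-ATPase subunits (Psmd) bind ubiquitin, remove it and hold the parts together. In brown fat of mice, the transcription factor Nfe2l1 is known to sustain proteasome gene expression.

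Estimated depth, read from the steps between low RPKM values, in units of 1000000 fragments was 4.77 in TELP T18, 5.76 in N9_ss, 5.51 in N9 day 7 and 14.2 in the standard library of day 7, against 22.6 in TELP N9 and 14.4 in the standard library of day 0. The median proteasome gene then rests on 45.6, 271, 243 and 647 reads per kilobase in the day 7 libraries and on 898 and 512 in those of day 0, so counting error is largest in T18. The 10 most abundant genes held 79.8% of all RPKM in T18, which stands apart in this respect, and 7.56% to 32.8% in the other 5 libraries. Adipoq, a fat cell hormone gene, was at 491 to 2018 RPKM at day 7 against 0.601 to 0.675 at day 0. The preadipocyte gene Dlk1 was at 0.0544 to 0.784 RPKM at day 7 against 5.601 and 7.77 at day 0.

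Nearly all proteasome genes were well expressed on both days. In the standard library of day 7, 47 of the 50 were at 1 RPKM or more, and 46 were in each of the other 5 libraries. Psma8, which encodes an alpha subunit of the testis, was listed at 0 in all 6 libraries, and Psmb11, which encodes a beta subunit of the thymus, stayed at or below 0.0804 RPKM. The 31 genes of the constitutive particle (Psma1 to Psma7, Psmb1 to Psmb7, Psmc1 to Psmc6 and 11 Psmd genes) summed to 579, 2406 and 2208 RPKM in TELP T18, N9_ss and N9 at day 7 and to 1945 in the standard library of day 7, against 1834 in TELP N9 and 1649 in the standard library of day 0. As a share of all RPKM of the library, the same sums came to 0.0995%, 0.411%, 0.378% and 0.569% at day 7, against 0.448% and 0.477% at day 0. The sum was thus higher at day 7 in both the standard and the TELP N9 pair, while the share was higher in the standard pair and lower in the TELP N9 pair.

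**Figure D1:**
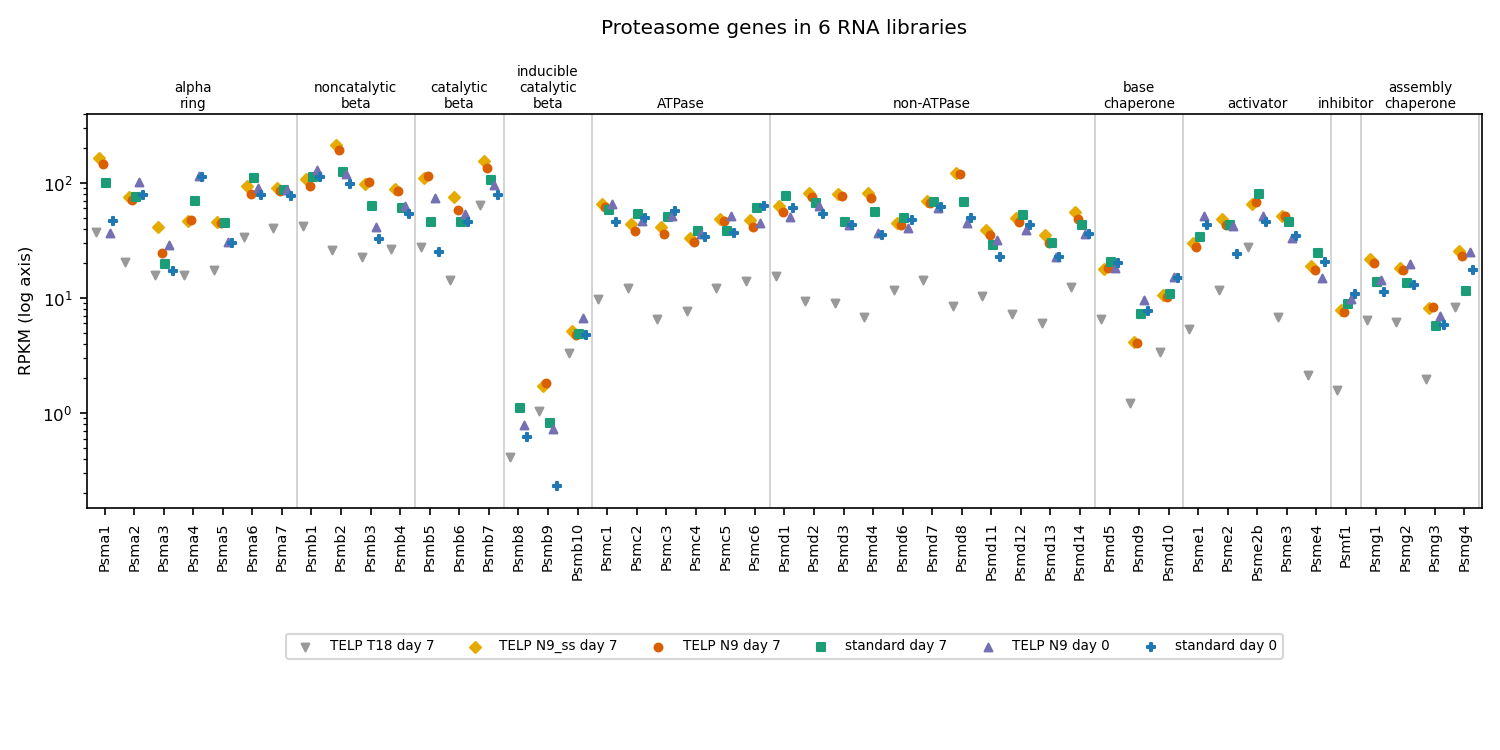
RPKM (log axis) of 47 proteasome genes in 6 libraries, 1 point per library, grouped by role. Day 7 libraries stand left of day 0 libraries. The TELP T18 points of the constitutive subunits lie at 6.02 to 63.9 RPKM, below the other 5 libraries except for Psma1 and Psmb5. Psmb8 is listed at 0 in N9_ss and N9 and has no point there. Psma8, Psmb11 and Psmc3ip are not drawn.

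Levels were most even within the ATPase ring. Its highest gene was 1.57 to 2.13 times its lowest across the 6 libraries, against 2.58 to 6.60 times in the alpha ring, 2.75 to 4.47 times among Psmb1 to Psmb7 and 2.58 to 3.91 times among the 11 non-ATPase genes. Psmc1 was at 9.77, 65.7 and 62.0 RPKM in TELP T18, N9_ss and N9 at day 7 and at 57.8 in the standard library of day 7, against 65.8 in TELP N9 and 45.9 in the standard library of day 0. Psmc4 was at 7.66, 33.2 and 30.5 RPKM in TELP T18, N9_ss and N9 at day 7 and at 38.3 in the standard library of day 7, against 36.1 in TELP N9 and 34.2 in the standard library of day 0, the lowest ATPase in 5 libraries, with Psmc3 lowest in T18. Beta subunit genes headed the order of levels at day 7. Psmb2 was the highest of the 31 genes in N9_ss, N9 and the standard library of day 7, and Psmb7 in T18, while at day 0 Psmb1 was highest in TELP N9 and Psma4 in the standard library. Psma3 was the lowest of the 31 in N9 day 7 and in both standard libraries. The order of the 31 levels had a Spearman rho of 0.85 between day 7 and day 0 in the standard libraries and of 0.56 in TELP N9. Between TELP N9 and standard it was 0.81 at day 0 and 0.71 at day 7. These are descriptions over genes of the same libraries.

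The first comparison set adipocytes against pre-adipocytes. Most proteasome genes differed little between the days, while the median of all genes was below 0 as deposited. Differences are of log2(RPKM + 1), which understates those of low genes, and calls were made at an absolute difference of 1 or more. Of the 46 members with a mean of 1 RPKM or more over the day 7 and day 0 libraries of TELP N9 and standard, Psma1 alone was called higher in both library types and 0 were called lower in both. Among all 11474 genes kept, 7.23% were called higher and 5.81% lower in both. The members left out were Psma8, Psmb8, Psmb9 and Psmb11.

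The median difference of the 46 was 0.11 in TELP N9 and 0.17 in standard, above the medians of all genes, which were -0.46 and -0.17. Positive differences in both library types were seen for 25 of the 46 (54.3%) and negative ones for 10 (21.7%), against 26.1% and 56.1% of all genes. The TELP N9 pair alone had 3 of 47 members called higher (Psma1, Psmb3 and Psmd8), where 13.9% of genes were, and 3 called lower (Psma4, Psmd9 and Psmc3ip), where 29.9% were. The standard pair alone had 1 of 46 called higher, where 8.22% of genes were, and 0 lower, where 6.53% were.

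Signs in TELP N9 depend on how libraries are scaled. Scaling by the median of ratios shifted the median of all genes to 0.03 in TELP N9 and -0.05 in standard, scaling to equal totals to -0.89 and -0.17, and quantile normalization to -0.05 and -0.11. Members stood above that median under each, by 0.57 in TELP N9 and 0.35 in standard as deposited, by 0.61 and 0.35 under median of ratios, by 0.50 and 0.37 under equal totals and by 0.19 and 0.38 under quantile normalization. In TELP N9 the median of every role but the noncatalytic beta genes was below 0 under equal totals, and, Psmc3ip apart, the median of every role but the base chaperones was above 0 under median of ratios. Of all genes called in TELP N9, 31.8% were called higher as deposited, 53.9% under median of ratios, 17.5% under equal totals and 49.5% under quantile normalization, and in standard 55.7% as deposited and 66.0% under median of ratios.

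Limma, with library type as a block and p adjusted over all 11474 genes, called 0 members at an adjusted p under 0.05, where it called 1.41% of genes higher and 0.209% lower. The lowest adjusted p of a member was 0.122. Errors and p-values of this fit rest on how far the day differences of TELP N9 and standard disagree, not on replicates. At an unadjusted p under 0.05 there were 3 members higher and 1 lower, among 1265 and 1872 of all genes.

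**Figure D2:**
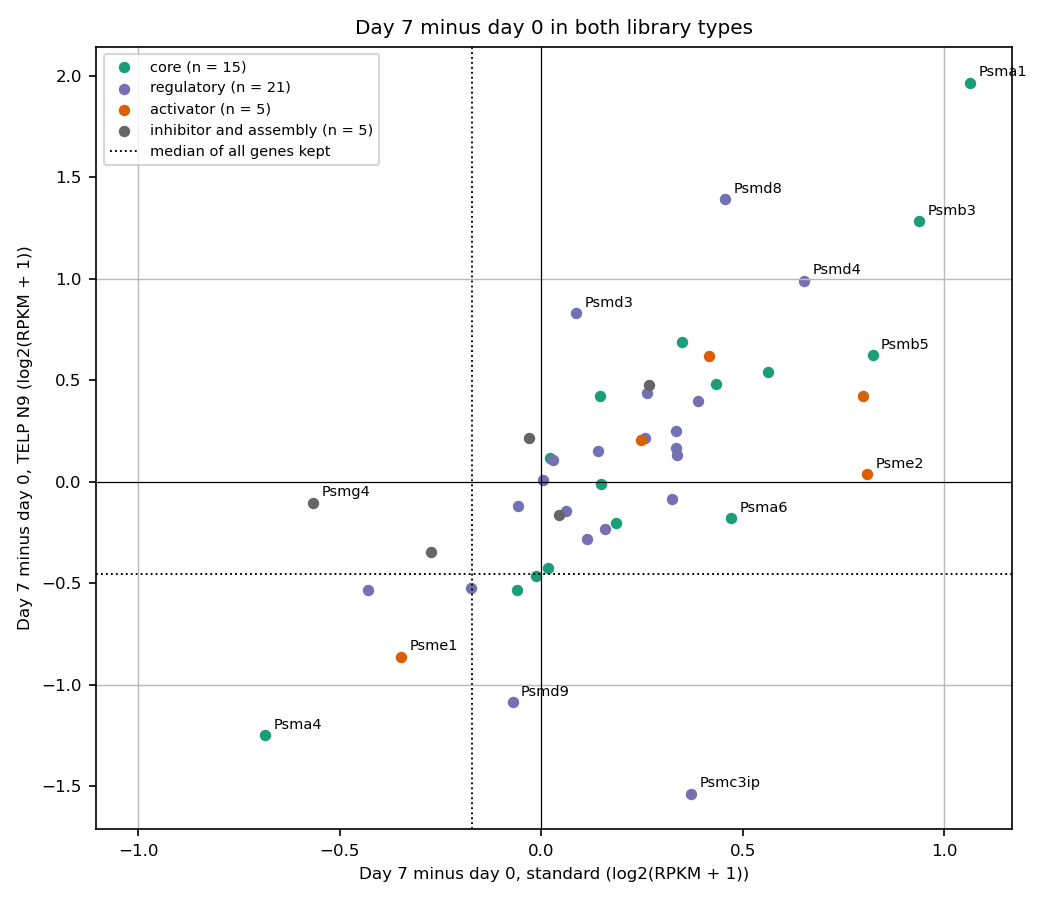
Day 7 minus day 0 of log2(RPKM + 1) for 46 proteasome genes, 1 point per gene, in TELP N9 (vertical) and standard libraries (horizontal). Grey lines mark differences of 1 and dotted lines the medians of all genes kept. Psma1 alone lies past 1 on both axes, at 1.97 in TELP N9 and 1.06 in standard.

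The alpha ring held both ends of the range among subunits. Psma1 was at 37.3, 166 and 146 RPKM in TELP T18, N9_ss and N9 at day 7 and at 99.4 in the standard library of day 7, against 36.5 in TELP N9 and 47.0 in the standard library of day 0. It was higher in every day 7 library but T18 than in both day 0 libraries. Its RPKM at day 7 was 3.98 times that at day 0 in TELP N9 and 2.11 times in standard, and its differences were 1.97 in TELP N9 and 1.06 in standard (limma log2 difference 1.51, SE 0.36, adjusted p = 0.122). Psma4 was at 15.9, 46.6 and 47.7 RPKM in TELP T18, N9_ss and N9 at day 7 and at 70.1 in the standard library of day 7, against 115 in TELP N9 and 113 in the standard library of day 0. All 4 day 7 libraries lay below both day 0 libraries for Psma4. T18 was low for most genes, with a median of -1.77 against N9 over all genes, and N9_ss shares reads with N9. The differences of Psma4 were -1.25 in TELP N9 and -0.68 in standard (limma adjusted p = 0.168). Of all genes, 56.1% were negative in both library types. Psma4 overlaps AY074887 in the RefSeq annotation, which differed by 0.88 in TELP N9 and -0.41 in standard. Psma3, the lowest alpha gene in all 6 libraries, was at 15.7, 41.1 and 24.8 RPKM in TELP T18, N9_ss and N9 at day 7 and at 19.6 in the standard library of day 7, against 28.7 in TELP N9 and 17.2 in the standard library of day 0, and its differences were -0.20 in TELP N9 and 0.19 in standard. The ring as a whole had medians of -0.18 in TELP N9 and 0.19 in standard. In it, 2 of 7 genes were positive in both library types and 2 negative in both, against 26.1% and 56.1% of all genes. Psma2, Psma5, Psma6 and Psma7 differed by -0.53 to 0.54 in TELP N9 and by -0.06 to 0.56 in standard.

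Of the 4 beta genes that carry no protease site, 3 were positive in both library types, against 26.1% of all genes. Their medians were 0.56 in TELP N9 and 0.25 in standard. Psmb3 was at 22.6, 97.2 and 101 RPKM in TELP T18, N9_ss and N9 at day 7 and at 63.3 in the standard library of day 7, against 41.0 in TELP N9 and 32.6 in the standard library of day 0. Its differences were 1.28 in TELP N9 and 0.94 in standard, the highest mean after Psma1 (limma adjusted p = 0.135). Psmb2, with the highest mean level of all members, was at 26.1, 212 and 194 RPKM in TELP T18, N9_ss and N9 at day 7 and at 125 in the standard library of day 7, against 120.3 in TELP N9 and 97.7 in the standard library of day 0, with differences of 0.69 in TELP N9 and 0.35 in standard. Psmb1 was at 42.3, 108 and 94.3 RPKM in TELP T18, N9_ss and N9 at day 7 and at 112 in the standard library of day 7, against 130.5 in TELP N9 and 113 in the standard library of day 0. It was the gene below 0, with differences of -0.46 in TELP N9 and -0.01 in standard.

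Among the constitutive protease subunits, Psmb5 differed most between days. This gene encodes the chymotrypsin-like site and was at 28.0, 109.5 and 115 RPKM in TELP T18, N9_ss and N9 at day 7 and at 45.3 in the standard library of day 7, against 74.0 in TELP N9 and 25.2 in the standard library of day 0. Its differences were 0.62 in TELP N9 and 0.82 in standard (limma adjusted p = 0.197), but TELP N9 of day 0 exceeded the standard library of day 7, so the days overlap across library types. Psmb6, the caspase-like site, was at 14.4, 76.1 and 58.3 RPKM in TELP T18, N9_ss and N9 at day 7 and at 46.0 in the standard library of day 7, against 53.7 in TELP N9 and 45.3 in the standard library of day 0, with differences of 0.12 in TELP N9 and 0.02 in standard. Psmb7, the trypsin-like site, was at 63.9, 154 and 134 RPKM in TELP T18, N9_ss and N9 at day 7 and at 105 in the standard library of day 7, against 95.5 in TELP N9 and 77.8 in the standard library of day 0, with differences of 0.48 in TELP N9 and 0.43 in standard.

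The inducible protease subunits were far below their constitutive partners in every library. Psmb8, the partner of Psmb5, was at 0.412, 0 and 0 RPKM in TELP T18, N9_ss and N9 at day 7 and at 1.11 in the standard library of day 7, against 0.779 in TELP N9 and 0.613 in the standard library of day 0, where an exact 0 is as listed and can be a failed estimate. Psmb9, the partner of Psmb6, was at 1.04, 1.73 and 1.81 RPKM in TELP T18, N9_ss and N9 at day 7 and at 0.819 in the standard library of day 7, against 0.732 in TELP N9 and 0.231 in the standard library of day 0. Psmb10, the partner of Psmb7 and the most abundant of the 3, was at 3.34, 5.21 and 4.77 RPKM in TELP T18, N9_ss and N9 at day 7 and at 4.82 in the standard library of day 7, against 6.74 in TELP N9 and 4.75 in the standard library of day 0, and its days overlap. A count of 3 reads on 1 kb corresponds to 0.629 RPKM in T18, 0.545 in N9 day 7 and 0.211 in standard day 7, against 0.133 in TELP N9 and 0.208 in the standard library of day 0. Psmb8 in T18 is below that floor, which covers counting error only.

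Over all 3 pairs, the inducible genes made up 4.32%, 2.00% and 2.10% of the summed RPKM in TELP T18, N9_ss and N9 at day 7 and 3.32% in the standard library of day 7, against 3.57% in TELP N9 and 3.64% in the standard library of day 0. The pairs went different ways. Psmb9 made up 3.01% of its pair at day 7 against 1.34% at day 0 in TELP N9, and 1.75% against 0.506% in standard. Psmb10 made up 3.45% of its pair at day 7 against 6.60% at day 0 in TELP N9, and 4.38% against 5.76% in standard. The share of Psmb9 was thus higher, and that of Psmb10 lower, at day 7 in both library types, with Psmb9 resting on 3.32 to 16.6 reads per kilobase across the 6 libraries. Leukocytes also express these genes. Of 3 leukocyte and macrophage markers in the table (Ptprc, Emr1 and Cd68), the summed level was 0.455 to 4.70 RPKM at day 7 and 0.432 to 1.03 at day 0, most of it Cd68. Ptprc, which defines leukocytes, was at or below 0.0421 RPKM and listed at 0 in 3 libraries. The part of such cells in these shares was not tested.

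**Figure D3:**
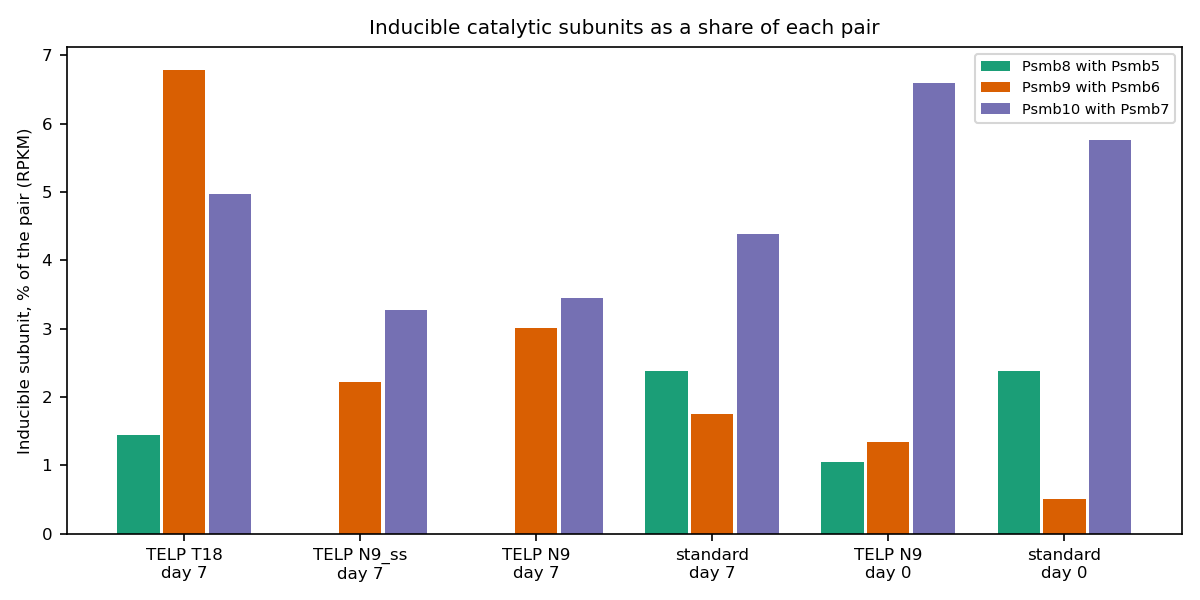
Inducible subunit as a percentage of the RPKM of its pair in each of 6 libraries, 1 bar per pair. Psmb10 is the largest share in all but T18, where Psmb9 with 6.78% exceeds Psmb10 with 4.98%. Psmb8 is listed at 0 in N9_ss and N9.

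Within the regulatory particle, all 11 non-ATPase genes were positive in both library types, with medians of 0.25 in TELP N9 and 0.33 in standard. Of the 6 ATPases 0 were positive in both types and 2 were negative in both, with medians of -0.19 in TELP N9 and 0.09 in standard. Among all genes, 26.1% were positive in both and 56.1% negative in both. Under median of ratios 5 of the 6 ATPases were positive in both, and under equal totals 3 of the 11 non-ATPase genes were. The non-ATPase medians were above the ATPase medians in both library types under each scaling. The difference between these groups was not tested. In both types 0 of the 17 genes were called, where 7.23% of all genes were called higher and 5.81% lower.

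Psmd8, whose yeast counterpart completes the lid of the particle, had the largest mean difference among them. It was at 8.49, 121 and 118 RPKM in TELP T18, N9_ss and N9 at day 7 and at 67.8 in the standard library of day 7, against 44.5 in TELP N9 and 49.2 in the standard library of day 0, with differences of 1.39 in TELP N9 and 0.46 in standard (limma adjusted p = 0.195). Psmd4, a ubiquitin receptor, was at 6.86, 81.6 and 74.5 RPKM in TELP T18, N9_ss and N9 at day 7 and at 56.3 in the standard library of day 7, against 37.0 in TELP N9 and 35.4 in the standard library of day 0, with differences of 0.99 in TELP N9 and 0.65 in standard (limma adjusted p = 0.175). Psmd3, a structural subunit of the lid, was at 8.96, 79.8 and 77.7 RPKM in TELP T18, N9_ss and N9 at day 7 and at 45.9 in the standard library of day 7, against 43.2 in TELP N9 and 43.2 in the standard library of day 0, with differences of 0.83 in TELP N9 and 0.09 in standard. All of these genes were highest in N9_ss and N9 and lowest in T18.

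The other non-ATPase genes had a lower mean of both differences. Psmd6, with the smallest mean difference, was at 11.7, 44.8 and 43.4 RPKM in TELP T18, N9_ss and N9 at day 7 and at 49.1 in the standard library of day 7, against 40.2 in TELP N9 and 48.1 in the standard library of day 0. Psmd13, the lowest of the 11 by mean level, was at 6.02, 35.1 and 30.3 RPKM in TELP T18, N9_ss and N9 at day 7 and at 30.3 in the standard library of day 7, against 22.8 in TELP N9 and 22.9 in the standard library of day 0, with differences of 0.40 in TELP N9 and 0.39 in standard. Psmd14, which removes ubiquitin from the substrate, differed by 0.44 in TELP N9 and 0.26 in standard. The large scaffold genes of the base differed by 0.13 in TELP N9 and 0.34 in standard for Psmd1 and by 0.25 in TELP N9 and 0.33 in standard for Psmd2. Among the ATPases, Psmc3 had the lowest mean difference and was at 6.60, 41.5 and 35.8 RPKM in TELP T18, N9_ss and N9 at day 7 and at 50.1 in the standard library of day 7, against 51.9 in TELP N9 and 56.7 in the standard library of day 0.

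The 3 chaperones that assemble the base had medians of -0.53 in TELP N9 and -0.07 in standard, beside -0.46 and -0.17 for all genes. Under median of ratios the chaperone medians were -0.04 in TELP N9 and 0.05 in standard. Psmd9 was at 1.23, 4.14 and 4.03 RPKM in TELP T18, N9_ss and N9 at day 7 and at 7.26 in the standard library of day 7, against 9.68 in TELP N9 and 7.68 in the standard library of day 0, and was called lower in TELP N9 (-1.09) with -0.07 in standard. Psmc3ip, which is no subunit, was at 0.546, 0.226 and 0.236 RPKM in TELP T18, N9_ss and N9 at day 7 and at 2.75 in the standard library of day 7, against 2.58 in TELP N9 and 1.90 in the standard library of day 0. It was called lower in TELP N9 (-1.53) with 0.37 in standard. Its gene overlaps Mlx in the RefSeq annotation, and Mlx differed by 1.56 in TELP N9 and 0.91 in standard.

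The activators open the core without ATP. As deposited, 4 of 5 were positive in both library types, against 26.1% of all genes, while under equal totals 1 activator was. Psme1 and Psme2 encode the partners of the interferon-inducible activator. As deposited, Psme1 was lower at day 7 in both library types, while Psme2 was higher in standard and nearly level in TELP N9. Psme1 was at 5.43, 30.3 and 27.7 RPKM in TELP T18, N9_ss and N9 at day 7 and at 33.9 in the standard library of day 7, against 51.1 in TELP N9 and 43.5 in the standard library of day 0, with differences of -0.86 in TELP N9 and -0.35 in standard. Psme2 was at 11.8, 49.0 and 43.4 RPKM in TELP T18, N9_ss and N9 at day 7 and at 42.7 in the standard library of day 7, against 42.2 in TELP N9 and 23.98 in the standard library of day 0, with differences of 0.04 in TELP N9 and 0.81 in standard. Psme2b, a close copy of Psme2 that may share its reads, was at 27.7, 65.6 and 68.9 RPKM in TELP T18, N9_ss and N9 at day 7 and at 80.5 in the standard library of day 7, against 51.1 in TELP N9 and 45.9 in the standard library of day 0, with differences of 0.42 in TELP N9 and 0.80 in standard. Psme1 overlaps Emc9 in the RefSeq annotation, and Emc9 stood at 53.8 RPKM at day 7 against 1.61 at day 0 in TELP N9, and at 14.4 against 1.73 in standard. Strand handling was not given in the sources used here, so reads of overlapping genes cannot be told apart. In all, 10 members overlap another gene of the table.

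Psme3, the nuclear activator, was at 6.77, 51.1 and 51.5 RPKM in TELP T18, N9_ss and N9 at day 7 and at 46.1 in the standard library of day 7, against 33.2 in TELP N9 and 34.2 in the standard library of day 0. Its differences were 0.62 in TELP N9 and 0.42 in standard, and T18 apart, each day 7 library was above both of day 0. Psme4, a large activator found in the nucleus, was at 2.15, 19.0 and 17.4 RPKM in TELP T18, N9_ss and N9 at day 7 and at 24.6 in the standard library of day 7, against 14.9 in TELP N9 and 20.6 in the standard library of day 0, with differences of 0.21 in TELP N9 and 0.25 in standard. Over the 46 genes kept in both types, activators had medians of 0.21 in TELP N9 and 0.42 in standard, against 0.12 and 0.19 for the 15 core genes and 0.11 and 0.16 for the 21 regulatory genes. The ranges overlap, since activators ran from -0.35 to 0.81 and core genes from -0.68 to 1.06 in standard. Psme4 overlaps Erlec1 in the RefSeq annotation. Without members that overlap another gene or have a copy, Psme3 was the only activator left. The activator median was then 0.62 in TELP N9 and 0.42 in standard. Differences between these groups were not tested.

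No inhibitor or assembly gene was called between days in either library type. Of all genes, 13.9% were called higher and 29.9% lower in TELP N9, and 8.22% and 6.53% in standard. Psmf1, named for inhibiting the core in vitro, was at 1.57, 7.80 and 7.50 RPKM in TELP T18, N9_ss and N9 at day 7 and at 8.87 in the standard library of day 7, against 9.81 in TELP N9 and 10.9 in the standard library of day 0, with differences of -0.35 in TELP N9 and -0.27 in standard. Psmg1 and Psmg2 encode a chaperone pair that starts the alpha ring. Psmg1 was at 6.44, 21.8 and 20.2 RPKM in TELP T18, N9_ss and N9 at day 7 and at 13.9 in the standard library of day 7, against 14.3 in TELP N9 and 11.4 in the standard library of day 0, with differences of 0.47 in TELP N9 and 0.27 in standard. Psmg2 was at 6.13, 18.1 and 17.4 RPKM in TELP T18, N9_ss and N9 at day 7 and at 13.5 in the standard library of day 7, against 19.6 in TELP N9 and 13.1 in the standard library of day 0, with differences of -0.16 in TELP N9 and 0.04 in standard. Psmg3 and Psmg4 encode a further chaperone pair. Psmg3 was at 1.98, 8.20 and 8.29 RPKM in TELP T18, N9_ss and N9 at day 7 and at 5.66 in the standard library of day 7, against 7.01 in TELP N9 and 5.79 in the standard library of day 0, with differences of 0.21 in TELP N9 and -0.03 in standard. Psmg4 was at 8.39, 25.8 and 23.3 RPKM in TELP T18, N9_ss and N9 at day 7 and at 11.5 in the standard library of day 7, against 25.1 in TELP N9 and 17.5 in the standard library of day 0, with differences of -0.10 in TELP N9 and -0.57 in standard.

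Promoters are shown for Psma1 and Psmb3, with the highest mean differences, for Psma4, with the lowest, and for Psmd12, whose promoter holds the motif on both strands. Each is the 250 bases before the RefSeq transcription start, 5′ to 3′ on the strand of the gene, on build GRCm38.p6. Capitals mark matches to TGANNNNGC on either strand. This loose pattern includes the core of the antioxidant response element read by Nfe2l1 and Nfe2l2, and other strings besides. The Psma1 promoter lies at chr7:114276117-114276366 on the minus strand, that of Psmb3 at chr11:97703184-97703433 on the plus strand, that of Psma4 at chr9:54950609-54950858 on the plus strand and that of Psmd12 at chr11:107479278-107479527 on the plus strand.
Psma1: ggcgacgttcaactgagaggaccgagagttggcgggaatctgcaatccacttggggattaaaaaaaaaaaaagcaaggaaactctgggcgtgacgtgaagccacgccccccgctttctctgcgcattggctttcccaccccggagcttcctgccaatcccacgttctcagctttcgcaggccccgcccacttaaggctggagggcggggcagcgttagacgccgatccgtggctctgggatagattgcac
Psmb3: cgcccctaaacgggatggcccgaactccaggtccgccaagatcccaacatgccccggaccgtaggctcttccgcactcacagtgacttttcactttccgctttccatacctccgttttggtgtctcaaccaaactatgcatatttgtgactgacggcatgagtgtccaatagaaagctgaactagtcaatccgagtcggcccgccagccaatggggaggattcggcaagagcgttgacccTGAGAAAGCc
Psma4: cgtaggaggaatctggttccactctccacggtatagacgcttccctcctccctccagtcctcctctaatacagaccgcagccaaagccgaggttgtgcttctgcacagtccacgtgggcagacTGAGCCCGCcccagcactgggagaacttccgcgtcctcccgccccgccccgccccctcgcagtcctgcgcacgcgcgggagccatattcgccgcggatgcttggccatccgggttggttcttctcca
Psmd12: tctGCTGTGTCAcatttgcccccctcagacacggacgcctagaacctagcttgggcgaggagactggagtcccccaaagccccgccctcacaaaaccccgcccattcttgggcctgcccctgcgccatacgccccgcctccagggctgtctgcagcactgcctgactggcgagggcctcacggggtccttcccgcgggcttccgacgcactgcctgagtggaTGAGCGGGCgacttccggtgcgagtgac
The Psma1 stretch holds 0 matches, those of Psmb3 and Psma4 hold 1 each, and that of Psmd12 holds 2. The same stretch of Psmc6, not shown, also holds the motif on both strands. Psmc6 differed by -0.12 in TELP N9 and -0.06 in standard. In the full window, which also takes in 50 bases after the start, 24 of the 42 members with a promoter in the RefSeq table (57.1%) had a match, against 45.0% of 27025 genes. In the 250 bases before the start these shares were 40.5% and 38.7%. A match is a string of letters and not a shown binding site. Psmd12 was at 45.7 RPKM in TELP N9 of day 7 against 39.2 in TELP N9 of day 0, and 52.2 against 43.4 in the standard libraries, with differences of 0.22 in TELP N9 and 0.26 in standard.

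Of 61 other genes of the pathway found in the table, 60 were kept, of which 2 were called higher at day 7 in both library types and 0 lower, where 7.23% and 5.81% of all genes were. Under equal totals 0 were called higher, and under quantile normalization 1 was called lower. In the TELP N9 pair by itself 7 were called higher and 8 lower, where 13.9% and 29.9% of genes were. The largest differences in TELP N9 were those of Ubqln2, a shuttle receptor like Ubqln1, with -1.94 in TELP N9 and -0.67 in standard, and of Ube2g2, a ubiquitin-conjugating enzyme, with 1.89 in TELP N9 and 0.70 in standard, both named after their values were seen. The median difference of the 60 was -0.08 in TELP N9 and -0.07 in standard. Ubqln1, which shuttles ubiquitinated proteins to the proteasome, was at 88.9 RPKM in TELP N9 of day 7 against 31.7 in TELP N9 of day 0, and 68.8 against 33.6 in the standard libraries (limma adjusted p = 0.124). H2-K1, a class I antigen presenting molecule, was at 14.6 RPKM in TELP N9 of day 7 against 6.33 in TELP N9 of day 0, and 11.0 against 4.85 in the standard libraries (limma adjusted p = 0.137). Nfe2l1, which encodes the proteasome gene regulator, was at 10.6, 135 and 141 RPKM in TELP T18, N9_ss and N9 at day 7 and at 103 in the standard library of day 7, against 60.2 in TELP N9 and 54.1 in the standard library of day 0, with differences of 1.21 in TELP N9 and 0.91 in standard (limma adjusted p = 0.145). Nfe2l2, its relative that responds to oxidative stress, was at 12.2, 36.3 and 37.5 RPKM in TELP T18, N9_ss and N9 at day 7 and at 54.6 in the standard library of day 7, against 88.5 in TELP N9 and 107 in the standard library of day 0, with differences of -1.22 in TELP N9 and -0.96 in standard (limma adjusted p = 0.137). These relatives thus differed in opposite directions in both library types, each short of 1 in standard.

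Values follow for 3 further partners of the particle. Pomp, the chaperone that matures beta rings, was at 47.9, 87.1 and 78.8 RPKM in TELP T18, N9_ss and N9 at day 7 and at 81.3 in the standard library of day 7, against 91.8 in TELP N9 and 74.6 in the standard library of day 0, with differences of -0.22 in TELP N9 and 0.12 in standard. Adrm1, a ubiquitin receptor of the regulatory particle, was at 8.73, 65.0 and 67.6 RPKM in TELP T18, N9_ss and N9 at day 7 and at 27.7 in the standard library of day 7, against 37.6 in TELP N9 and 24.3 in the standard library of day 0, with differences of 0.83 in TELP N9 and 0.18 in standard. Usp14, a deubiquitinase that binds the proteasome, was at 3.25, 14.9 and 13.8 RPKM in TELP T18, N9_ss and N9 at day 7 and at 14.6 in the standard library of day 7, against 12.2 in TELP N9 and 14.9 in the standard library of day 0, with differences of 0.17 in TELP N9 and -0.02 in standard. Of 13 genes of ubiquitin and its activation, 2 were positive in both types and 7 negative in both as deposited. Under median of ratios these counts were 6 and 4. Of 11 antigen presentation genes kept, 4 were positive in both and 5 negative in both as deposited. Among all genes, 26.1% were positive in both and 56.1% negative in both.

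To set the library types side by side, TELP N9 values were compared with standard ones within a day. The labels do not say whether both types came from the same RNA or culture. Library method therefore cannot be told apart from a difference between cultures. At day 7 the median difference (TELP N9 minus standard) was 0.01 over 47 members, against -0.23 over all genes. There 1 member was called higher, where 7.51% of genes were, and 1 lower (Psmc3ip), where 17.0% were. At day 0 the median was 0.18 over 46 members, against 0.01 over all genes, with 1 called higher, where 2.2% of genes were, and 0 lower, where 0.718% were. With median of ratios scaling the day 7 median of members was 0.37, and with equal totals it was -0.74. Of all genes called at day 7, 30.7% were called higher as deposited, 56.5% under median of ratios, 5.19% under equal totals and 48.8% under quantile normalization, and at day 0 75.4% as deposited and 63.5% under equal totals.

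Psmb5 was the member called higher in TELP N9 on both days, by 1.32 at day 7 and 1.52 at day 0. Its level in TELP N9 was 115 RPKM at day 7 and 74.0 at day 0, against 45.3 and 25.2 in standard. It ranked lowest of Psmb1 to Psmb7 in the standard libraries, while in TELP N9 it was above 4 of them at day 7 and 3 at day 0. In the RefSeq annotation the miRNA gene Mir686 overlaps Psmb5 and had the opposite difference. Mir686 had 0.000222 RPKM in TELP N9 of day 7 and 32.1 in TELP N9 of day 0, against 153 and 125 in standard. The part of this overlap, or of the annotated pseudogene Psmb5-ps, was not tested.

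Medians of the role groups varied in the day 7 difference between library types, while their members overlap, and differences between roles were not tested. Noncatalytic beta genes had a median of 0.56 and assembly chaperones of 0.50, against -0.40 for the ATPases and -0.22 for the activators. The 4 assembly chaperones were higher in TELP N9 on both days as deposited, while under equal totals their day 7 median was -0.21. After Psmb5 the largest positive difference at day 7 was that of Psmg4, which had 0.96 at day 7 and 0.50 at day 0. Psmd8 had 0.80 at day 7 and -0.14 at day 0, Psmd3 0.75 at day 7 and 0.00 at day 0 and Psmb3 0.67 at day 7 and 0.32 at day 0.

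The day differences were then compared between library types. The TELP N9 difference minus the standard one had a median of -0.08 over the 46 members and of -0.27 over all genes. Among members 0 exceeded 1 and 2 lay below -1, where 5.99% and 17.2% of genes did. These were Psmc3ip (-1.91) and Psmd9 (-1.02). Psmd8 (0.94), Psma1 (0.90) and Psmd3 (0.74) were at the upper end, and Psme2 (-0.77) and Psma6 (-0.65) came next at the lower end.

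**Figure D4:**
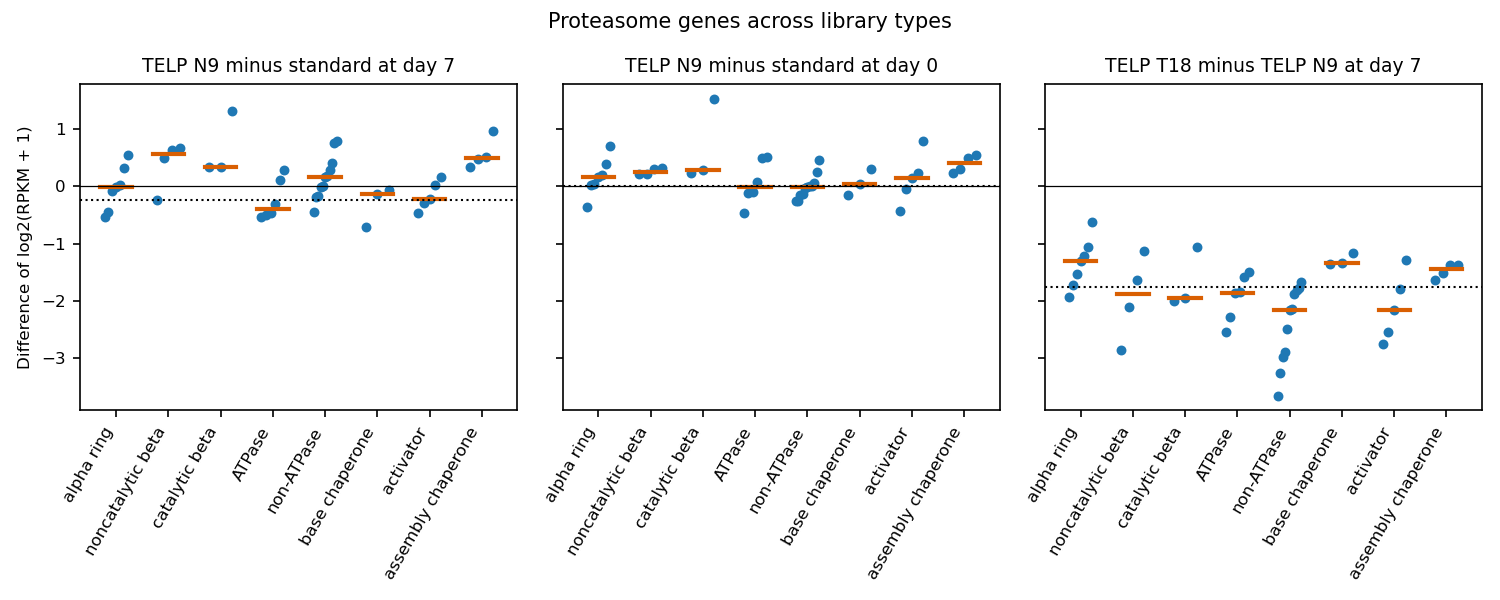
Difference of log2(RPKM + 1) between library types for proteasome genes, 1 point per gene, grouped by role, with an orange bar at the median of each role and a dotted line at that of all genes kept. Psmb5 stands above 1 on both days among the catalytic genes, and non-ATPase genes reach down to -3.65 in T18 minus N9.

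T18 was set against N9 within day 7. Of 46 members kept, 43 were called lower in T18 and 0 higher, where 83.4% and 0.841% of all genes were, and their median of -1.76 lay beside that of all genes (-1.77). Activators had a median of -2.16, regulatory genes -1.87 and core genes -1.42. Within these, the non-ATPase subunits had -2.16, the ATPases -1.86 and the alpha ring -1.31. Under median of ratios the members had a median of 0.35, with non-ATPase subunits at -0.10, ATPases at 0.26 and the alpha ring at 0.86, so the order of the 3 groups was kept while the ATPases and the alpha ring changed sign. Of all genes called, 0.999% were called higher as deposited, 46.9% under median of ratios and 49.4% under quantile normalization.

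Psmd8 had the lowest difference between T18 and N9, at -3.65, with 8.49 RPKM in T18 against 118 in N9. Psmd4 followed at -3.26 and Psmd3 at -2.98. The members not called were Psmb10 at -0.41, with 3.34 RPKM in T18 against 4.77 in N9, Psmb9 at -0.46 and Psma3 at -0.63. Psmb9 and Psmb10 are low genes, whose differences log2(RPKM + 1) understates.

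N9_ss and N9 of day 7 share reads, since the same ratio of values was found for 83.3% of 3609 genes of low values, and they are not replicates. Of 46 members 0 were called higher and 0 lower, where 0.0194% and 0.00968% of genes were, and the median difference was 0.10, against -0.01 over all genes. N9_ss has 1.05 times the depth of N9. In units of reads, 43 of 48 members with a value (89.6%) had more reads in N9_ss, against 74.2% of the 10334 genes kept, 4 had equal reads within 0.1% (Psmb5, Psmb9, Psmb11 and Psmc3ip) and 1 had fewer (Psme2b). The median ratio of reads was 1.13 over the members and 1.04 over the genes kept. Psma3 had the largest difference, with 41.1 RPKM in N9_ss against 24.8 in N9 and 1.73 times the reads, followed by Psmb6 with 1.37 times the reads.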

How the data were processed

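The authors deposited RPKM values for 24029 genes in 6 RNA libraries. Bowtie2, TopHat, Cufflinks and the mm9 build are named per the submitters' processing notes. Their versions, settings and annotation were not given in the sources used here. Read totals were also not found there. Nothing states that libraries came from separate cultures, so p-values measure a spread that may be technical. That spread is how far the day differences of TELP N9 and standard disagree, moderated over genes, and not a spread of replicates. All 50 members matched current mouse gene names. Members and gene lists were chosen with earlier results of these data known. Genes averaging 1 RPKM or more across the libraries of a comparison were kept, and log2(RPKM + 1) was compared between single libraries. Limma 3.58.1 (R 4.3.3, mean trend, library type as block, false discovery rate 0.05) was fitted to 4 libraries. Depth was read from low values that are whole steps of 1 read, in 31 to 75 short genes per library after deducting 202 or 204 bp from the gene length. It is approximate, since most short genes did not follow it, so no count test was run. The depth reading and the calls by size and by limma were tried on simulated data. The values simulated for depth were all whole steps of reads, unlike the real ones. Full values are given for protease subunits, activators, inhibitor and assembly genes, and for called or extreme members of each other role. Promoters came from RefSeq. Alternatives were another pseudocount (0.1 RPKM), other filters (none, or 5 RPKM), 3 scalings, N9_ss or T18 for N9, and limma. One more, without members that overlap another gene or have a copy, was chosen after seeing the data. Python 3.11.15 was used. The 17 chromatin libraries of the 23 samples were not analysed here.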

Additional observations from a re-analysis of the deposited data

Results flagged for a closer look

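For 3 members the difference between library types, or between days, had opposite signs of at least 0.25 log2 units on each side, which was not tested. TELP N9 minus standard was 0.55 at day 7 and -0.36 at day 0 for Psma1. For Psmd9 it was -0.72 at day 7 and 0.30 at day 0. For Psmc3ip it was -1.60 at day 7 and 0.31 at day 0, and the day 7 minus day 0 difference of this gene was -1.53 in TELP N9 and 0.37 in standard. Psmc3ip and Psmd9 stood at 0.236 and 4.03 RPKM in N9 of day 7. Opposite signs of any size were seen in 16 of 46 members for the difference between library types and in 11 of 46 for the difference between days. For the day difference, 2042 of all 11474 genes kept were neither positive in both library types nor negative in both. The share of all genes was not computed for the difference between library types or for signs of at least 0.25.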

How the results depend on the processing

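Counts of called members moved with scaling and with the choice of T18. In both library types the count called higher was 1 as deposited, 2 under median of ratios and quantile normalization (Psmb3 joining), and 0 with T18 as the day 7 TELP library or under limma, and the count called lower was 0 under every alternative run. In the standard pair alone 2 were higher under median of ratios and quantile normalization. In TELP N9 the higher count of 3 became 5 with a pseudocount of 0.1 RPKM, 10 under median of ratios, 1 under equal totals, 5 under quantile normalization and 0 with T18, and the lower count of 3 became 0 under median of ratios, 7 under equal totals, 39 with T18 and 1 without overlapping or copied members. The TELP N9 median of 0.12 became 0.64, -0.39 and -1.72 under median of ratios, equal totals and T18, and with T18 the median of all genes was -2.11, Psmb3 was at -0.83 and Psmd8 at -2.26. For TELP N9 against standard the higher count of 1 became 0 at both days without overlapping or copied members, and at day 7 it was 3 with the pseudocount of 0.1, 5 under median of ratios, 0 under equal totals and 2 under quantile normalization. The lower count of 1 at day 7 became 2 with no filter, 0 with the filter at 5 RPKM, 12 under equal totals and 0 without overlapping or copied members, and the median of 0.01 became 0.37 with median of ratios and -0.74 with equal totals. For T18 against N9 median of ratios gave 7 higher, 2 lower and a median of 0.35, and quantile normalization 5, 1 and 0.33. The change between library types had a median of 0.28 with median of ratios and -0.58 with equal totals. Shares of the inducible genes for Psmb8, Psmb9 and Psmb10 in turn were 1.45%, 6.78% and 4.98% in T18, 0%, 2.22% and 3.27% in N9_ss, 0%, 3.01% and 3.45% in N9 day 7 and 2.38%, 1.75% and 4.38% in standard day 7, against 1.04%, 1.34% and 6.60% in TELP N9 day 0 and 2.38%, 0.506% and 5.76% in standard day 0. Calls in TELP N9 were also lost for Psma1 with T18 (0.03), for Psma4 (-0.72) and Psmd9 (-0.60) under median of ratios, for Psmd9 under quantile normalization (-0.57) and for Psmb3 (0.78) and Psmd8 (0.88) under equal totals, which also ended the day 7 call of Psmb5 against standard (0.56). The causes of these shifts were not tested. Across all alternatives 121 recomputed summary values stayed within 1.5 times (counts) or 0.25 log2 units (medians) and 56 moved past that. Of the other recomputed values (single genes, medians of blocks and of all genes, and pathway counts) 261 stayed, 42 moved, 2 reversed, 7 lost a call and 2 gained one. With 1 library per group no replicate could be left out. No paired analysis was possible because the RNA libraries carry no replicate numbers, apart from the limma fit, whose block pairs the days within a library type. Depth limits T18 most, where a gene at 1 RPKM rests on 4.77 reads per kilobase.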
